A study of Mus musculus with 16 samples.

Results

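*Nkx* genes encode homeodomain transcription factors of the NK class, and 9 of them (*Nkx2-1*, *Nkx2-2*, *Nkx2-3*, *Nkx2-5*, *Nkx2-9*, *Nkx3-2*, *Nkx6-1*, *Nkx6-2* and *Nkx6-3*) were examined in nuclear RNA-seq of mouse embryonic stem cells (ESCs). They were listed by name, each RefSeq entry was mapped to a gene symbol, and the entry with the highest mean per symbol was kept. All 9 were found, each with 1 entry, among 19338 genes and 20633 entries. The cells were ESCs of the Ring1a-/-;Ring1bfl/fl line and of a derivative, Eed-/-;Ring1a-/-;Ring1bfl/fl, in which *Eed*, a core gene of Polycomb repressive complex 2 (PRC2), was deleted with CRISPR/Cas9. The derivative is labelled PcG DKO and is represented by clone B4 alone. Both lines lack RING1 throughout, and treatment with 800 nM 4-hydroxytamoxifen for 72 h deletes *Rnf2* (*Ring1b* in the labels), the gene of the other catalytic subunit of Polycomb repressive complex 1 (PRC1). Untreated Ring1a-/-;Ring1bfl/fl cells served as wild type and became PRC1-null with tamoxifen, whereas untreated PcG DKO cells were PRC2-null and became PRC1/2-null with tamoxifen. There were 4 libraries in each of the 4 groups, 16 in all. The level used here is the authors' mean normalized count, a read count scaled between libraries and averaged over all 16 of them. It carries no spread between replicates and does not separate the groups, so the values describe the whole set of cells. That it spans all 16 is inferred from its being identical in the tables of the 3 null groups. No comparison between wild-type and null cells is made here, and nothing in the tables gives the sequencing depth of a library.

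Polycomb complexes hold developmental regulators such as the *Nkx* genes at low transcription in ESCs, through histone H2A ubiquitylation by PRC1 and histone H3 lysine 27 methylation by PRC2, and they bind mainly at CpG islands. In the embryo the *Nkx* genes are switched on region by region. *Nkx2-2*, *Nkx2-9*, *Nkx6-1* and *Nkx6-2* subdivide the ventral neural tube under Hedgehog signalling. *Nkx2-5* acts in heart precursors, *Nkx2-1* in thyroid, lung and ventral forebrain, and *Nkx2-3* in gut mesoderm and spleen. *Nkx3-2*, also known as *Bapx1*, acts in cartilage and axial skeleton, and *Nkx6-3* in hindbrain neurons and stomach. *Nkx2-2* and *Nkx6-1* act again in the endocrine pancreas.

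Because CpG islands are the sites where Polycomb complexes gather, the promoter windows of the family are shown first. The RefSeq promoter table (GRCm38.p6, the assembly of mm10) gave a window for 8 of the 9 genes, from 250 bases before to 50 bases after an annotated start. *Nkx6-3* had no window in that table. The windows of *Nkx6-1* and *Nkx6-2* had the highest CpG observed/expected ratios of the 8, that of *Nkx2-5* had the lowest, and *Nkx3-2* is added because its RNA level was the lowest. Every CG dinucleotide is in capitals and each sequence reads 5′ to 3′ on the strand of the gene, which is the minus strand for all 4. The windows lie at chr5:101664662-101664961 for *Nkx6-1*, chr7:139582748-139583047 for *Nkx6-2*, chr17:26841516-26841815 for *Nkx2-5* and chr5:41764171-41764470 for *Nkx3-2*.
Nkx6-1: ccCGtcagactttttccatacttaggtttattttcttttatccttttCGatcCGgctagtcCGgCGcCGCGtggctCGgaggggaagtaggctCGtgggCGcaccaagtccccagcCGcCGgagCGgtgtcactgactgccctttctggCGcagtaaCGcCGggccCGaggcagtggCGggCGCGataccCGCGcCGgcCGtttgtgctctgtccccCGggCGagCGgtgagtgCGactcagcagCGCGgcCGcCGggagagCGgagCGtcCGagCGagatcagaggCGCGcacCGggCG
Nkx6-2: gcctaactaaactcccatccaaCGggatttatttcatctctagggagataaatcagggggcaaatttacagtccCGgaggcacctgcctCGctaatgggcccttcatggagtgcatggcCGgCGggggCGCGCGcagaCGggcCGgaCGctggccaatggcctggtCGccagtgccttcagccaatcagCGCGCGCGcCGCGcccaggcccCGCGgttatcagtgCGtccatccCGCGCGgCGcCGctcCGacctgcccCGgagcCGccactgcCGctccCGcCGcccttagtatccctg
Nkx2-5: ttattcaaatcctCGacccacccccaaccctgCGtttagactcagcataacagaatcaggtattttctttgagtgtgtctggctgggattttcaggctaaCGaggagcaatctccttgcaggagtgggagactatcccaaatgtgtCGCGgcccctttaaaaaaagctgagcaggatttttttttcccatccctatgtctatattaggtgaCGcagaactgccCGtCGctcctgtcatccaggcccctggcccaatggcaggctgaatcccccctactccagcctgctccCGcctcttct
Nkx3-2: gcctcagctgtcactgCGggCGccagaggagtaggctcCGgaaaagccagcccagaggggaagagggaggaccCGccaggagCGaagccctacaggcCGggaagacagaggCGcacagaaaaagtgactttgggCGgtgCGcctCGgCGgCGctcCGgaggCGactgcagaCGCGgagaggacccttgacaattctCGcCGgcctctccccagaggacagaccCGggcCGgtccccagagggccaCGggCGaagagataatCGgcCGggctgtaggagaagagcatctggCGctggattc

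The capitals are dense in the *Nkx6* windows, except toward their 5′ ends, and sparse in that of *Nkx2-5*. The *Nkx6-1* window held 40 CG dinucleotides with 67.3% G + C and an observed/expected ratio of 1.18, at percentile 99.4 of the 32851 windows in the table. That of *Nkx6-2* held 32, with 66.7% G + C and a ratio of 0.972. *Nkx3-2* had the same 66.7% G + C but 25 CG dinucleotides and a ratio of 0.761. *Nkx2-2* (chr2:147186353-147186652, minus strand) had 17 and a ratio of 0.791. The windows of *Nkx2-2* and *Nkx2-5* lie well inside the GENCODE span of their genes, since longer transcripts with starts further upstream are annotated there. Those of *Nkx6-1* and *Nkx3-2* also lie inside the span, close to its 5′ end. These windows end at 101664961 and 41764470, and the spans at 101664996 and 41764501, so they hold no bases before the GENCODE start. The windows of *Nkx6-1*, *Nkx6-2*, *Nkx3-2* and *Nkx2-2* were the 4 with a ratio of at least 0.6 and at least 50% G + C, a composition of the CpG island kind. Over all windows given there, 33.5% had it, so 4 of 8 is a description of a small set. The other 4 windows passed on G + C alone. *Nkx2-9* (chr12:56613235-56613534, minus strand) had a ratio of 0.571, *Nkx2-1* (chr12:56536859-56537158, minus strand) and *Nkx2-3* (chr19:43612075-43612374, plus strand) of 0.559 each, and *Nkx2-5* of 0.466 with 9 CG dinucleotides. The ratio of *Nkx2-5*, the lowest of the 8, was above the median of 0.384 over all windows. A ratio under 0.6 in so short a window does not show that a promoter lacks a CpG island or Polycomb complexes. Nor does a higher ratio show that they are there. The paper located CpG islands by measuring nonmethylated DNA, and Polycomb targets by binding of RNF2 (PRC1) and SUZ12 (PRC2). Those data were not used here.

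**Figure D1:**
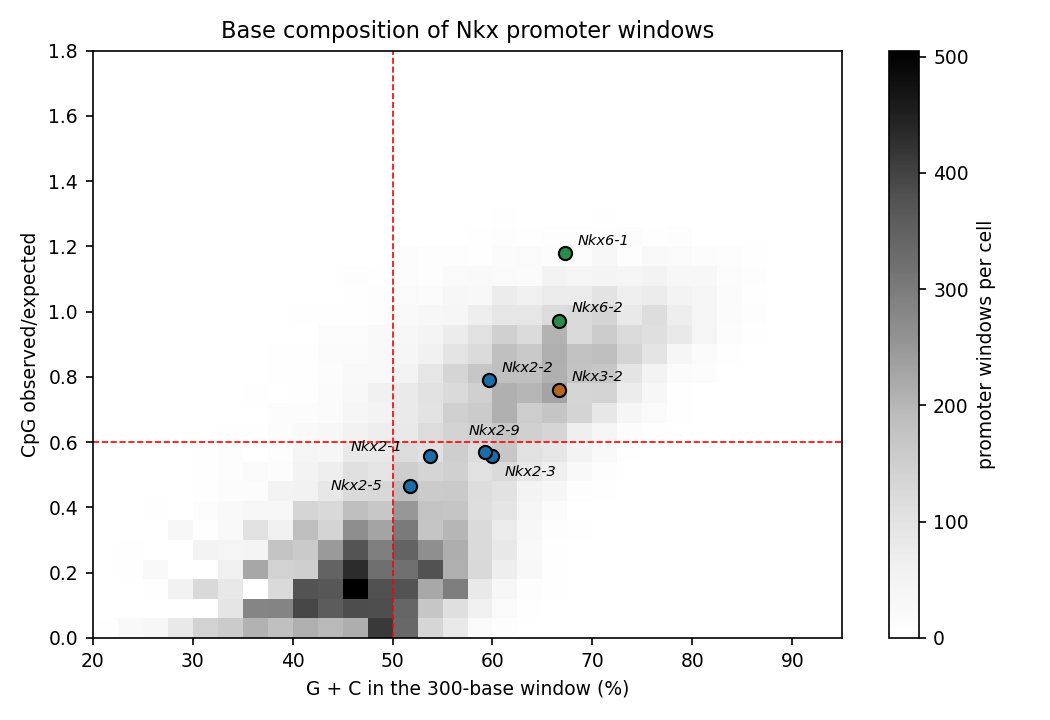
Each point is the promoter window of one *Nkx* gene, placed by its G + C content (x axis, %) and its CpG observed/expected ratio (y axis), over a grey map of the number of windows among all 32851 in the table. Blue is *Nkx2*, brown *Nkx3* and green *Nkx6*; the dashed lines mark 50% and 0.6, and 4 points (*Nkx6-1*, *Nkx6-2*, *Nkx2-2* and *Nkx3-2*) lie past both.

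Sequence motifs of core promoters were searched in the same windows on both strands. The TATA box hexamer TATAAA was in none of the 8 windows, against 13.6% of all windows. The GC box GGGCGG, a motif bound by SP1, was in 6 of 8 windows against 35.7% of all, and *Nkx2-9* alone held 4 copies, between 87 and 44 bases before its start. *Nkx6-1* and *Nkx2-5* held none. The CCAAT box was in 3 windows (37.5%), those of *Nkx2-3*, *Nkx2-5* and *Nkx6-2*, against 37.4% of all. TNAAGTG, the core of the site that NK-2 proteins bind, was in 1 window, that of *Nkx2-2*, 197 bases before the start, against 11.5% of all. A match of letters is a description and not a bound site, and GGGCGG contains a CG, so its share moves with CpG content.

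RNA of all 9 genes was low over the 16 libraries. Values from here on are not scaled by gene length unless stated. The authors' mean normalized counts ran from 2.55 to 85.7 with a median of 20.9, whereas the median over all 20633 entries was 201. None of the 9 reached a mean of 100, a level that 58.4% of all entries reached. With a mean of at least 10 there were 8 of 9, against 75.7% of all entries. The highest member stood at percentile 40 of all entries. Together the 9 means sum to 277, or 0.00149% of the sum over all entries.

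*Nkx6-3* and *Nkx6-2* had the highest levels of the family, with or without scaling by transcript length. *Nkx6-3* (NM_029002, chromosome 8 from 23153269 to 23158948, plus strand, 3 exons) had the highest authors' mean, 85.7. *Nkx6-2* (chromosome 7 from 139579376 to 139582797, minus strand) followed at 65.0. Its entry, NR_027857, carries the RefSeq prefix of non-coding transcripts, while the GENCODE transcript matched to it has 4 exons and a coding sequence of 831 nt. *Nkx6-1* (NM_144955, chromosome 5 from 101658139 to 101664996, minus strand) was lower, at 20.9. The 3 *Nkx6* genes make up 62% of the summed means of the family.

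The 5 *Nkx2* genes lay between 12.2 and 31.5, with a median of 20.6. *Nkx2-9* (NM_008701, chromosome 12 from 56611389 to 56613284) had the authors' highest mean of them, 31.5. *Nkx2-3* (NM_008699, chromosome 19 from 43612325 to 43615892) had 26.1. *Nkx2-1* (NM_001146198, chromosome 12 from 56531958 to 56536908) had 20.6. That is next to *Nkx6-1* in the order, and with no spread given it cannot be said whether these neighbours differ. *Nkx2-5* (NM_008700, chromosome 17 from 26838664 to 26845009) and *Nkx2-2* (NM_010919, chromosome 2 from 147177546 to 147194243) were also side by side, at 12.4 and 12.2. All but *Nkx2-3* are on the minus strand, and each of the 5 entries has 2 exons.

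*Nkx3-2* (NM_007524, chromosome 5 from 41761483 to 41764501, minus strand) had the lowest unscaled level. Its authors' mean was 2.55, at percentile 17.1 of all entries, and *Nkx6-3* was 33.6 times higher, 25.8 times per kilobase of transcript and 17.9 times per kilobase of gene span. *Nkx2-2*, the next lowest without scaling, was 7.0 times below *Nkx6-3*. Per kilobase of gene span *Nkx2-2* lay under *Nkx3-2*, but its GENCODE span also takes in longer transcripts that start further upstream.

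**Figure D2:**
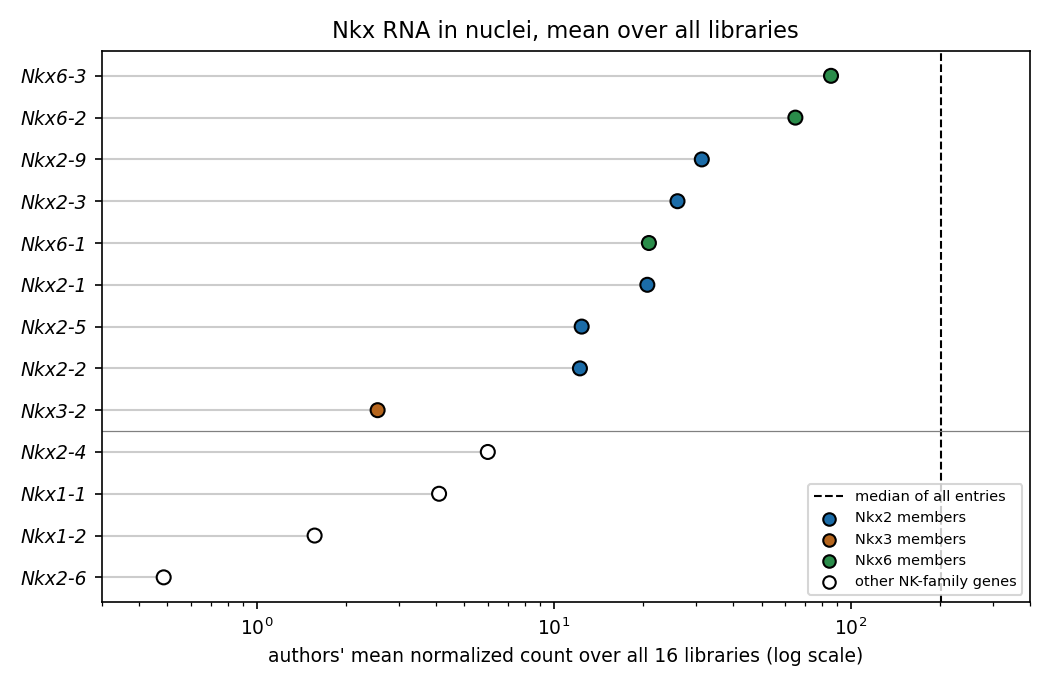
Points give the authors' mean normalized count over all 16 libraries (x axis, log scale) for the 9 *Nkx* genes (above the grey line) and 4 other NK-family genes (open points). The dashed line is the median of all entries, 201; all 9 genes lie to its left, from *Nkx3-2* at 2.55 to *Nkx6-3* at 85.7, and no error bars can be drawn because the values are already pooled.

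A pooled mean also sets a ceiling on what any group can hold. Normalized counts cannot be negative, so the mean of 1 group of 4 libraries is at most 4 times the mean over 16. For *Nkx3-2* the ceiling is 10.2, so that no group, null or wild type, can have averaged more. It is 48.9 for *Nkx2-2*, 49.6 for *Nkx2-5*, 82.5 for *Nkx2-1* and 83.5 for *Nkx6-1*. The ceilings of *Nkx2-3* and *Nkx2-9* are 104 and 126. For these 7 genes even a group that held every read would stay under the median of all entries, 201. The 2 others, *Nkx6-2* with a ceiling of 260 and *Nkx6-3* with 343, are the ones that can have passed that median in some group. A ceiling limits the groups and says nothing about which group held the reads.

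Longer genes collect more reads, so the levels were also set per length, which kept both ends of the order by transcript length. Per kilobase of the transcript of each entry the authors' mean was 38.3 for *Nkx6-3*, 34.1 for *Nkx6-2* and 24.9 for *Nkx2-9*, whose transcript of 1264 nt is the shortest. *Nkx2-3* had 12.3, *Nkx2-1* 9.20 and *Nkx2-5* 8.13 per kilobase. *Nkx6-1*, with 3138 nt the longest transcript, moved from place 5 to place 7 with 6.66. *Nkx2-2* had 5.77 and *Nkx3-2* 1.48, again the lowest. Nuclear RNA also holds introns, and the text consulted does not say whether intron reads were counted. Per kilobase of the gene span *Nkx6-2* led with 19.0, ahead of *Nkx2-9* with 16.6 and *Nkx6-3* with 15.1. *Nkx2-2*, whose span of 16698 bp is the longest, then came last with 0.733, just under *Nkx3-2* with 0.845. The GENCODE spans of *Nkx2-2* and *Nkx2-5* reach well upstream of the starts of their promoter windows. Their values per kilobase of span, and the last place of *Nkx2-2*, therefore depend on the span chosen.

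Genes on the opposite strand overlap 3 of the 9 members in the annotation. The library kit marks strand, while the sources used here do not say if the counting made use of it. *Nkx2-2* shares 10161 bp with *Nkx2-2os*, an antisense noncoding RNA, whose authors' mean was 63.3 against 12.2 for *Nkx2-2*. It also shares 984 bp with the antisense transcript *6430503K07Rik*, at 2.56. *Nkx6-2* shares 277 bp at its 3′ end with *Inpp5a*, an inositol phosphatase gene with an authors' mean of 3022. *Nkx2-1* shares 1566 bp with the antisense gene *Gm26973*, for which no entry was found in the tables. How far these partners contribute to the 3 values was not tested.

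Most genes near the *Nkx* genes had higher values, here without scaling by length. Within 100 kb, 8 of the 9 had at least 1 other protein-coding gene with an entry, and 17 of the 21 such pairs had a neighbour at 100 or more. Leaving out neighbours that are *Nkx* genes themselves, these were 7 of the 9 genes and 17 of 18 pairs. Over all entries 58.4% reached 100, and the highest *Nkx* gene stood at percentile 40. Most entries anywhere in the genome therefore lie above each *Nkx* gene. Whether neighbours at 100 or more are commoner here than among protein-coding genes at large was not tested. *Bod1l*, 23 kb from *Nkx3-2*, had an authors' mean of 4159. *Xrn2*, an exoribonuclease gene 99.5 kb from *Nkx2-2*, had 6686. *Got1*, near *Nkx2-3*, had 1680 and *Crebrf*, near *Nkx2-5*, had 1215. *Gpat4*, 12.3 kb from *Nkx6-3*, had 1029, and *Ank1*, which ends 2.77 kb before *Nkx6-3* on the same strand, had 150. The pairs under 100 were *Nkx2-9* with *Pax9*, a regulator of somites and pharyngeal pouches, at 62.2, and those between *Nkx* genes. *Nkx2-1* and *Nkx2-9*, at 20.6 and 31.5, lie 74.5 kb apart on chromosome 12 and are each a neighbour of the other. *Nkx2-4*, at 5.99, lies 92.1 kb from *Nkx2-2* and was lower than it. *Nkx6-1* had no protein-coding neighbour with an entry.

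**Figure D3:**
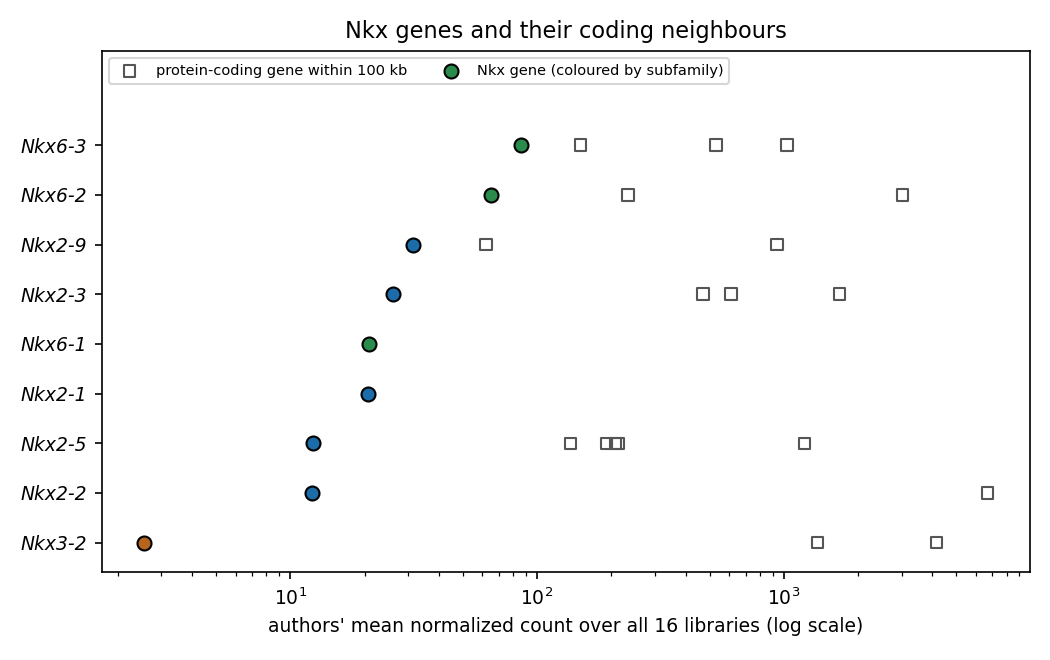
Filled points give the authors' mean normalized count (x axis, log scale) of each *Nkx* gene and open squares that of protein-coding genes within 100 kb that have an entry, other *Nkx* genes left out. In the 7 rows with squares every square lies to the right of its *Nkx* gene, from *Pax9* at 62.2 beside *Nkx2-9* at 31.5 to *Xrn2* at 6686 beside *Nkx2-2* at 12.2.

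Another 4 NK-family genes were also low. *Nkx2-4*, a close relative of *Nkx2-1*, had 5.99 (3.47 per kilobase), above *Nkx3-2*. *Nkx1-1* had 4.11, *Nkx1-2* 1.56 and *Nkx2-6*, a gene of pharynx and heart, 0.486. Their median was 2.84 and none of the 4 reached 10, against 8 of the 9 members and 75.7% of all entries. The 9 members were chosen with earlier results of these data known, so this contrast is a description only.

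Genes that act with *Nkx* factors spanned a wide range, again without scaling by length. Over all entries 58.4% reached 100 and 23% reached 1000, with a median of 201. Of 13 ventral neural tube and Hedgehog genes 8 (61.5%) had an authors' mean of at least 100, near the share of all entries, with a median of 115. These were led by the signalling components *Gli2* at 8555, *Gli3* at 2697, *Ptch1* at 2616 and *Smo* at 495. Of 10 heart partners 6 (60%) reached 100, also near the share of all entries. Here the zinc finger genes *Gata4* and *Gata6* had 4716 and 2247, *Tbx20* 798 and *Hand1* 508. Of 9 pancreas genes none reached 100, as in the *Nkx* family, and their median was 11.1. They were led by *Sox9* at 68.5 and *Neurod1* at 58.5, with *Mafa* at 15.1 and *Pdx1*, an early pancreas regulator, at 11.2. Of 8 thyroid, lung and forebrain partners only *Sox2*, also a pluripotency factor, reached 100, at 1849. *Lhx6* had 92.4, *Hhex* 84.7 and *Pax8* 55.6. Among 8 somite and skeletal partners *Sox6* at 1238 and *Sox5* at 435 reached 100, and *Sox9* had 68.5 and *Pax9* 62.2. Groucho corepressors and deacetylases, which NK proteins recruit to silence targets, reached 1000 in 5 of 6 cases, with *Tle4* at 10143, *Tle3* at 3124, *Hdac1* at 1510 and *Hdac2* at 1476. Only genes with an entry are counted, and *Sox9* is on both the pancreas and the somite lists.

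The labelled cell type was checked on the same pooled scale. All 9 ESC markers with an entry had an authors' mean of at least 100, with a median of 2113, such as *Esrrb* at 5687, *Nanog* at 1577 and *Pou5f1* at 1384. Among markers of other cell types, all 6 for primitive endoderm and 3 of 5 for trophoblast (60%) were at 100 or more. For neural progenitor and fibroblast markers the counts were 2 of 6 (33.3%) and 3 of 8 (37.5%). Of all entries 58.4% reached that level, so the trophoblast share was near it and the neural progenitor and fibroblast shares were below it. The primitive endoderm markers had a median of 1860 and ran from *Sox7* at 397 to *Gata4* at 4716. The fibroblast markers ran from *Lum* at 0.283 to *Pdgfrb* at 162, with a median of 60.9. *Twist2* at 132 and *Thy1* at 128 were the others over 100, while the matrix genes *Col1a2*, *Col1a1*, *Dcn* and *Col3a1* had 70.3, 51.5, 1.11 and 1.01. In which group these markers lie, and their part in the *Nkx* levels, was not tested. A pooled mean gives no check of the deletions, and fewer transcribing cells cannot be told apart from less RNA per cell.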

How the data were processed

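Nuclei of mouse ESCs were isolated, rRNA was depleted, and directional paired-end libraries were sequenced. The authors filtered rRNA reads with Bowtie2, aligned the rest to mm10 with STAR, removed PCR duplicates with SAMtools and ran DESeq2 on a custom nonredundant gene set. The deposited signal is the mean normalized count per RefSeq entry, pooled by the authors over libraries, and it was identical for all 20633 entries in the 3 tables. The remaining deposited columns hold the authors' own comparisons of each null group with wild type (log2 fold changes in 2 forms, a standard error, a test statistic and p-values) and were not used, so no test between groups was run. Tool versions are not given in the sources used here.

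Symbols were assigned to 20560 entries, 20450 through RefSeq and 110 through GENCODE vM21, which gave *Nkx2-1*. Gene coordinates, exons and lengths come from GENCODE vM21 and promoter windows from RefSeq GRCm38.p6. Percentiles are the share of entries below a value plus 0.5 of ties. Composition, motif and percentile code was tested on simulated data. Named genes were the 9 members, 4 other NK-family genes, up to 4 members with the highest mean from each list, and neighbours within 100 kb. A gene planned for the NK-family list and another for the pancreas list are not reported here. For the marker lists, genes were picked as examples after their values were seen. The members and lists were chosen with earlier results of these data known. Entry choice, length scaling, level thresholds and CpG thresholds were varied. The software was matplotlib 3.10.9, scipy 1.17.1, pandas 2.3.3 and numpy 2.4.6 under Python 3.11.15.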

Additional observations from a re-analysis of the deposited data

How the results depend on the processing

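The median level of the 9 *Nkx* genes was 20.9. Summing all entries of a symbol could not change it, as each of the 9 has 1 entry. The median was 9.20 per kilobase of transcript and 4.17 per kilobase of gene span, which are different units. None of the 9 genes reached a mean of 100 or of 1000, and 8 reached 10. The median percentile of the family was 29.0 among all entries, 25.8 among entries above 0 and 6.24 among entries of at least 10, as fewer low entries remain. Spearman's rho with the unscaled order, across the 9 genes as a description, was 0.95 per kilobase of transcript and 0.917 per kilobase of gene span. The number of CpG-rich promoter windows was 4 of 8 at both pairs of thresholds, the stricter being 0.75 and 55%. Over all windows the share was 33.5% at the main thresholds and 22.2% at the stricter ones. No paired analysis was possible because the values used are already pooled over libraries. For the same reason leaving out a replicate, another normalization and a filter on counts per library were not run. Depth per library is unknown, so no counting interval is given, and a low mean is not shown to be absence. The planned comparison of protein sequences was not run, as no protein table was used here.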
